A study of Mus musculus with 6 samples.

Results

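The genes described are Ifitm1, Ifitm2 and Ifitm3, the 3 interferon-induced transmembrane protein genes with substantial reads in RM1 mouse prostate cancer cells. They were chosen by name, and 3 of the 23791 named entries of the count table carry these names. The choice was made with the large difference of Ifitm1 between labelled and unlabelled cells already known, so the comparison of RM1536 with RM1 is given for these genes as a description with no test. RNA was counted per gene in 6 libraries. RM1 is a mouse prostate cancer line, sequenced here unlabelled from culture in 2 libraries (RM1 a and RM1 b). RM1536 is RM1 carrying eCFP and luc2, a fluorescent protein and a luciferase, and is a pool of clones 5, 3 and 6, sequenced from culture in 2 libraries (RM1536 a and RM1536 b). The remaining libraries, called bone and lung, are RM1536 cells taken from the femur and the lung of 1 C57BL/6 mouse at day 16 after they were injected into the heart stained with PKH26, a membrane dye that dividing cells dilute. Only PKH-negative, proliferating cells were sorted, and they were then grown in culture again, so bone and lung are cultured derivatives and not tissue. The cells of all 6 libraries were grown in medium with 5% serum to 85% confluency. The RNA integrity number was given as at least 6.8 for all 6. Bone and lung have no replicate, and nothing in the labels tells if a and b were grown apart, so a p-value measures only the spread between duplicates, which may be technical.

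IFITM proteins are small membrane proteins of the plasma membrane and of endosomes. They hinder the fusion of enveloped viruses with the host cell, and they are classic products of interferon signalling, in which secreted interferons act through receptors, JAK kinases and STAT and IRF factors on promoter elements called ISREs. Ifitm3 acts mainly in endosomes and Ifitm1 mainly at the cell surface. In the mouse, Ifitm1 and Ifitm3 are also known as the germ cell genes fragilis2 and fragilis, and many tumour cells express members of the family without added interferon.

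Total counts per library were 22763835 to 30303566, and 13832 genes were tested with edgeR's quasi-likelihood test. The duplicates differed beyond counting error (chi-square per degree of freedom 89.87 for the RM1 pair and 91.06 for the RM1536 pair). Between the RM1536 duplicates interferon-stimulated genes stood apart, with all 49 of a list higher in a than in b by a median log2 difference of 2.37. Prostate epithelial genes were only partly present: Krt8 (966 to 2367 CPM, TMM-scaled counts per unit of library size) and Krt18 were read in all libraries, while Hoxb13 and Krt5 had no count in any. Most markers of leukocytes, endothelium and lung epithelium had few counts, some of them more in bone or lung than in culture. Of the leukocyte markers, Cd68 (111 to 1230 counts) and Cd14 (337 to 694) were read in all libraries. Cd14 was lower in bone and lung (14.8 CPM each) than in RM1536 a and b (18.3 and 19.2). Cd68 was higher in bone and lung (19.7 and 20.2 CPM) than in RM1536 a and b (11.2 and 3.59). RM1 a and b stood at 9.59 and 43.5 CPM for Cd68. Laptm5 had 55 counts in bone and 7 in lung, against 6 and 4 in RM1536 and 46 and 54 in RM1. Of the 5 tested leukocyte markers, 3 were higher and 2 lower in bone than in RM1536. In lung 4 were higher and 1 lower. Ptprc, the leukocyte antigen CD45, had 0 counts in bone and in lung. The macrophage gene Lyz2 had 61 and 73 counts there against 0 in the 4 other libraries. The endothelial gene Emcn and the lung epithelial gene Napsa were at 0 throughout. By contrast, and named after their values were seen, the endothelial gene Vwf had 124 counts in lung and 28 in bone against 18 and 4 in RM1536, Pecam1 had 25 and 29 against 9 and 11, and Hopx of the lung epithelial list had 97 and 185 against 76 and 51. None of these passed edgeR's test against RM1536 after adjustment. Other endothelial markers went the other way. Of the 5 tested, 3 were higher and 2 lower in bone than in RM1536, and 2 were higher and 3 lower in lung.

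The 3 genes sit together on chromosome 7 (GRCm38, GENCODE M21 annotation), in a cluster of 5 Ifitm genes from 140948958 to 141017924, a span of 69.0 kb. Ifitm2 (ENSMUSG00000060591.9) runs from 140954837 to 140955987 on the minus strand. Ifitm1 (ENSMUSG00000025491.14) starts 11.2 kb further on, from 140967221 to 140969825 on the plus strand, with 3 annotated transcripts. Ifitm3 (ENSMUSG00000025492.6) lies 39.8 kb beyond Ifitm1, from 141009586 to 141010770 on the minus strand. Ifitm5 and Ifitm6 flank them at 140948958 to 140950291 and 141015699 to 141017924, and Ifitm10 lies apart at 142325837 to 142373753. A gene named Gm45717 overlaps Ifitm2 on the same strand over 268 of its 655 exon bases (40.9%) and has no entry in the count table.

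The upstream stretches are shown because the 3 genes moved in different ways between the same libraries. They come from RefSeq promoter windows of GRCm38.p6 (300 bases each, mostly before the start), each printed 5′ to 3′ on the gene's own strand and limited to bases outside annotated exons. Capitals mark matches to the ISRE letters GAAANNGAAA and, in the last of the stretches, both ISRE matches of Ifitm3 just after its start.
Ifitm1, chr7:140967826-140968027, plus strand: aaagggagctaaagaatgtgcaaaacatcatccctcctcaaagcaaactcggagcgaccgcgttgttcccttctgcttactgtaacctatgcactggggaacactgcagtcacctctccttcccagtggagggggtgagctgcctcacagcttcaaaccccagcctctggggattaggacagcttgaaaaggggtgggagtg
Ifitm2, chr7:140955988-140956211, minus strand: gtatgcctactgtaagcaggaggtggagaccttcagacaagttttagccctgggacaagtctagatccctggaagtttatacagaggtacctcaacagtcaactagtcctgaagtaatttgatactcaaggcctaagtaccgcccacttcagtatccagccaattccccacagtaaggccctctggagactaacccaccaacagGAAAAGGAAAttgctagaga
Ifitm3, chr7:141010771-141010994, minus strand: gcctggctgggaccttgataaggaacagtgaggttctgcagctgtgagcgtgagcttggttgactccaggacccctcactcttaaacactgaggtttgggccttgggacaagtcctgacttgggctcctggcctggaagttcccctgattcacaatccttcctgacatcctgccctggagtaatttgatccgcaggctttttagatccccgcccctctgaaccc
Ifitm3 around both ISRE matches, chr7:141010715-141010743, minus strand: gGAAAAGGAAActtctgaGAAACCGAAAc

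Of 3 motifs searched on both strands, the Ifitm2 window held 1 ISRE match (GAAAAGGAAA at 140955998 to 140956007, first base at -46). The Ifitm3 window held GAAAAGGAAA at position 3 (141010733 to 141010742) and GAAACCGAAA at position 20 (141010716 to 141010725), both inside its annotated exon, and a match to the GAS letters TTCNNNGAA (TTCTGAGAA, position 14) that overlaps the second ISRE match. These positions count from the RefSeq start of each window, 140955961 for Ifitm2 and 141010744 for Ifitm3, which lies inside the GENCODE gene, so from the GENCODE starts the Ifitm2 match is nearer and the Ifitm3 matches are further in. The single Ifitm1 window, around a RefSeq start at 140968076 inside the gene's annotated span, in the table held no match to ISRE, GAS or the TCF letters CTTTGAT. Ifitm1 has other annotated starts that this window does not cover. Over all 32817 promoter windows, 3.43% held the ISRE letters, 8.29% the GAS letters and 3.73% the TCF letters. Counted per gene, with a match in any of its windows, the shares over 26994 genes were 3.98%, 9.55% and 4.29%. The interferon-stimulated list was counted per gene in the same way. Of the 37 interferon-stimulated genes of the list with a window, 21 (56.8%) had an ISRE match, 9 (24.3%) a GAS match and 0 a TCF match. A match is a run of letters and not a measured binding site.

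The coding sequences are close relatives, which bears on how far short reads can be told apart. Across alignments of the annotated coding sequences (318, 432 and 411 bases for Ifitm1, Ifitm2 and Ifitm3), identity over all columns, gaps included, was 60.4% for Ifitm1 with Ifitm2, 63.5% for Ifitm1 with Ifitm3 and 75.9% for Ifitm2 with Ifitm3. The longest runs shared without a mismatch are printed in lower case throughout, since every base is identical, and positions count from the first coding base.
Ifitm1 96 to 135, Ifitm2 159 to 198: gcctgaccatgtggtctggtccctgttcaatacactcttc
Ifitm1 96 to 159, Ifitm3 162 to 225: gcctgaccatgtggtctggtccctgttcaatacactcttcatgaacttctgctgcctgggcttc
Ifitm2 130 to 198, Ifitm3 133 to 201: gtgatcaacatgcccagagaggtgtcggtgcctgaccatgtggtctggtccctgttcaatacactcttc

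These runs overlap: the first is contained in both of the others. Of all windows of 50 bases along the longest transcript, 6.36% of Ifitm1, 48.5% of Ifitm2 and 10.02% of Ifitm3 occur exactly in a transcript of another annotated gene. For windows of 100 bases the shares are 0, 34.9% and 0. Most of the Ifitm2 sharing is with the overlapping Gm45717; beyond that gene it is 22.8% at 50 bases and 4.68% at 100 bases. The read length and the treatment of reads with several matches are not stated in the sources used here, so the counts of Ifitm2 are less certain than those of Ifitm1 and Ifitm3.

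Ifitm1 stood at 20.1 and 17.9 CPM in RM1 a and b, 513 and 408 in RM1536 a and b, 806 in bone and 316 in lung. These rest on 603, 505, 12756, 12593, 18358 and 8007 counts. Both RM1 libraries were low and the 4 RM1536-derived libraries high, with no overlap. The group means were 19.0 ± 1.60 CPM for RM1 and 460.4 ± 74.7 for RM1536 (SD, n = 2 each), a ratio of 24.2, and the fitted log2 fold change was 4.60 ± 0.25 (SE). Bone stood 42.4-fold and lung 16.6-fold above the RM1 mean. Of 9879 genes with a mean of at least 5 CPM, 23 (0.233%) had a higher log2 fold change between RM1536 and RM1. The genes were chosen with this difference of Ifitm1 known, so its high place follows from the choice and nothing is read from it.

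Ifitm2, a close relative of Ifitm3 that also acts in endosomes, stood at 210.5 and 139.8 CPM in RM1 a and b, 284.7 and 347.8 in RM1536 a and b, 398.2 in bone and 192.5 in lung. The RM1536 libraries lay above both RM1 libraries and bone above all of them, while lung fell inside the RM1 range. The mean was 175.2 ± 50.02 CPM for RM1 and 316.2 ± 44.6 for RM1536 (SD, n = 2 each), a ratio of 1.80 and a log2 fold change of 0.85 ± 0.27.

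Ifitm3 took the opposite direction between the cultures, with 876.7 and 971.5 CPM in RM1 a and b, 656.6 and 465.6 in RM1536 a and b, 619.0 in bone and 491.3 in lung. Both RM1 libraries were the highest, and bone and lung lay between the RM1536 duplicates. The mean was 924.1 ± 67.0 CPM for RM1 and 561.1 ± 135 for RM1536 (SD, n = 2 each), a ratio of 0.607 and a log2 fold change of -0.72 ± 0.24. The duplicates did not overlap between RM1 and RM1536 for any of the 3 genes. With n = 2 in each group, genes without a difference can separate too, and the share of all genes that do was not counted. The share of edgeR calls is a different measure. Over all tested genes, edgeR with Benjamini-Hochberg (BH) adjustment at 0.05 called 5.64% in this comparison, 2.10% higher and 3.54% lower; nothing is read from that share for genes chosen on the same contrast. The median log2 fold change of all tested genes was 0.017.

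**Figure D1:**
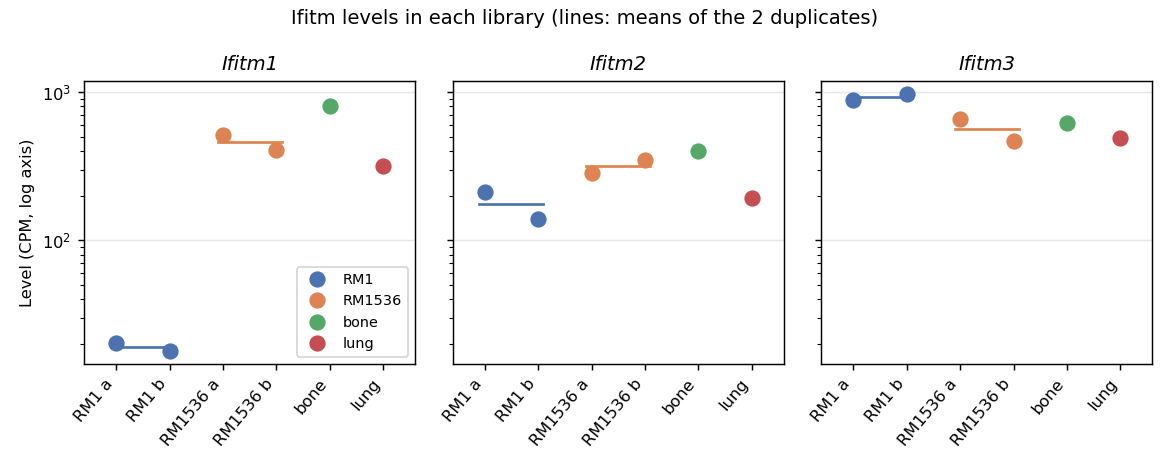
Level of Ifitm1, Ifitm2 and Ifitm3 in each of the 6 libraries, in CPM on a log axis shared by the 3 panels; points are single libraries and horizontal lines the means of the 2 duplicates. Ifitm1 is near 20 CPM in both RM1 libraries and above 300 in the 4 others, while Ifitm3 is highest in RM1 (876.7 and 971.5 CPM).

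In order of level, Ifitm1 ran from RM1 b and RM1 a, which differed by a log2 of 0.17, through lung and both RM1536 libraries to bone. Lung (316 CPM) lay below RM1536 b (408) and bone (806) above RM1536 a (513), in each case outside the RM1536 duplicates. For Ifitm2 the order was RM1 b, lung, RM1 a, RM1536 a, RM1536 b and bone, and the step from lung to RM1 a was smaller than the difference between the RM1 duplicates (log2 0.59). For Ifitm3 the order was RM1536 b, lung, bone, RM1536 a, RM1 a and RM1 b. None of the first 4 of these is separated from its neighbours by more than the RM1536 duplicates differ (log2 0.50). From the lowest to the highest library the range was 45.1-fold for Ifitm1, 2.85-fold for Ifitm2 and 2.09-fold for Ifitm3.

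Levels of different genes can be set side by side only per length. In CPM per kb of exon, Ifitm3 stood at 1293 and 1433 in RM1, ranks 15 and 10 of 23065 genes with a length, and at 686.7 to 968.4 in the other 4 libraries, ranks 31 to 59. Ifitm1 stood at 18.4 and 16.3 in RM1, ranks 2805 and 3100, at 469.2 and 372.6 in RM1536, ranks 85 and 106, at 737 in bone, rank 45, and at 288.9 in lung, rank 158. Ifitm2 lay between 213.5 (RM1 b) and 608 (bone), ranks 63 to 190 over the 6 libraries. By this measure Ifitm3 was among the most abundant transcripts of RM1, and Ifitm1 ranked far higher in RM1536 than in RM1.

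The make-up of the family was taken from the same levels per kb. Ifitm3 made up 79.2% and 86.2% of the summed level in RM1, with Ifitm1 at 1.13% and 0.983%. In RM1536 the shares of Ifitm1, Ifitm2 and Ifitm3 were 25.1%, 23.2% and 51.7% in a and 23.4%, 33.4% and 43.2% in b. In bone they were 32.6%, 26.9% and 40.4%, and in lung 22.1%, 22.5% and 55.4%. The sum of the 3 was 1633 and 1663 CPM per kb in RM1 a and b, 1872 and 1590 in RM1536 a and b, 2258 in bone and 1308 in lung, so the RM1536 duplicates lay on both sides of RM1. The ratio of Ifitm1 to Ifitm3 per kb was 0.0142 and 0.0114 in RM1 a and b, 0.484 and 0.542 in RM1536 a and b, 0.807 in bone and 0.399 in lung. With the longest transcript in place of all exon bases as the length, the share of Ifitm1 was larger, for example 37.5% in bone.

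**Figure D2:**
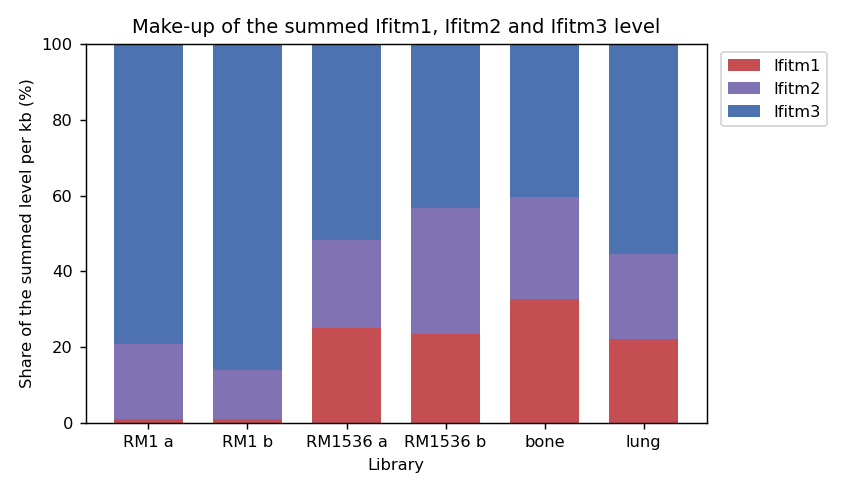
Share of Ifitm1, Ifitm2 and Ifitm3 in their summed level (CPM per kb of exon) in each library, in percent; each bar is 1 library and adds up to 100. Ifitm1 is a thin band in RM1 (1.13% and 0.983%) and takes 22.1% to 32.6% in the RM1536-derived libraries.

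Of the other family members, Ifitm5, which is known from bone-forming cells, had 2 and 6 counts in RM1 a and b, 10 and 26 in RM1536 a and b, 10 in bone and 9 in lung, and did not pass the test between RM1536 and RM1 (log2 fold change 2.14 ± 0.82, edgeR BH-adjusted p = 0.192). Ifitm6 had 10 to 78 counts and was highest in bone (78) and lung (67). It did not pass either (-1.001 ± 0.70, edgeR adjusted p = 0.45). Ifitm10 had 0 to 4 counts per library. No entry of the table was matched to Ifitm7. Thus 2 of the 8 other Ifitm and related CD225 genes with an entry had enough reads for a test, and 0 of them were called in any comparison. Of all tested genes edgeR called 5.64% in RM1536 against RM1. It called 2 genes in bone against RM1536, 0 in lung against RM1536 and 1 in bone against lung, so nothing is read from 0 of 2.

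Bone and lung were compared with cultured RM1536 as a description for the 3 genes, since both comparisons use the RM1536 libraries that chose them. Against RM1536, Ifitm1 had a log2 fold change of 0.81 ± 0.26 in bone and -0.54 ± 0.27 in lung. For Ifitm2 these were 0.33 ± 0.32 in bone and -0.72 ± 0.34 in lung, and for Ifitm3 0.14 ± 0.29 and -0.19 ± 0.30. Bone lay above and lung below both RM1536 libraries for Ifitm1 and Ifitm2, and Ifitm3 stayed inside the duplicates. Both comparisons share the RM1536 duplicates, so the values are not independent. Over all tested genes edgeR called 2 in bone against RM1536 (0.0145%; Padi4 and Trp53i11, named after their values were seen). In lung against RM1536 it called 0 (0%). Unadjusted p under 0.05 was reached by 1372 and 1902 genes, DESeq2 called 380 and 359, and limma-voom called 0 in each.

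Bone against lung is the comparison that did not choose the genes, although the same RM1 and RM1536 duplicates supply its spread and each side is 1 library assumed to vary like them. Ifitm1 stood at 806 CPM in bone and 316 in lung, a ratio of 2.55 and a log2 fold change of 1.35 ± 0.31 (95% interval 0.59 to 2.11), with an edgeR p of 0.00492 that did not pass after adjustment over 13832 genes (BH-adjusted p = 0.381). Ifitm2 stood at 398.2 and 192.5 CPM, a ratio of 2.07 and a log2 fold change of 1.05 ± 0.38 (0.12 to 1.98), with an edgeR p of 0.033 and an adjusted p of 0.559. Ifitm3 stood at 619.0 and 491.3 CPM, a ratio of 1.26 and a log2 fold change of 0.33 ± 0.34 (-0.50 to 1.17), with an edgeR p of 0.368 and an adjusted p of 0.80. All 3 were higher in bone, but edgeR called 0 of the 3, against 0.00723% of all tested genes (1 gene, Trp53i11). With no adjustment 2 of the 3 were under 0.05, as were 1171 of all 13832 tested genes. DESeq2 called Ifitm1 (log2 fold change 1.32, adjusted p = 0.0197) and limma-voom called none, and over 9 alternatives the adjusted p of Ifitm1 ran from 0.0158 to 0.393. Of 9879 genes with a mean of at least 5 CPM, 196 (1.98%) had a higher log2 fold change than Ifitm1 and 391 (3.96%) a higher one than Ifitm2. The summed level of 10 stromal fibroblast markers was 61.1 CPM in bone and 722 in lung, against 129 to 340 in the cultures. Most of the lung sum was 1 gene, the collagen gene Col1a1, at 0.791 CPM in bone and 604 in lung. Most of the sums in RM1 a and b was Ly6a (310.9 and 283.6 CPM). Of the 9 tested markers, 8 were lower in bone than in lung. In lung against RM1536, 4 were higher and 5 lower. Fewer cells of a type and less RNA per cell cannot be told apart in such libraries, and the part of these markers in the Ifitm values was not tested.

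The family's level was set beside 49 type I interferon-stimulated genes, all of which were tested. In RM1536 against RM1, all 49 had a lower value, and edgeR called 17 of them lower and 0 higher. Unadjusted p under 0.05 was reached by 46 of the 49 and by 3176 of all 13832 tested genes. The median log2 fold change of the 49 was -2.98, where 3.54% of all tested genes were called lower and the median of all was 0.017. The 4 with the smallest adjusted p were the nuclear body gene Sp100 (-6.23 ± 0.71, edgeR adjusted p = 0.0134), Lgals3bp (-3.24 ± 0.38, edgeR adjusted p = 0.0142), the antiviral nucleotide kinase gene Cmpk2 (-6.68 ± 0.98, edgeR adjusted p = 0.022) and Parp14 (-2.95 ± 0.45, edgeR adjusted p = 0.0246). Without RM1536 b the adjusted p of Sp100 was 0.0549. Ifitm1 (4.60), Ifitm2 (0.85) and Ifitm3 (-0.72) all lay above every one of the 49, of which the highest was Ifi27 at -1.19. The list was chosen with earlier results of these data known. This place holds for its 49 genes and not for every gene linked to interferon. The median level of the 49 was 106 and 142 CPM in RM1 a and b, 21.4 and 3.72 in RM1536 a and b, 5.62 in bone and 8.61 in lung.

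The RM1536 duplicates separated the family from this list as well. The 49 genes were higher in RM1536 a than in b by a median log2 of 2.37, whereas Ifitm1 differed by 0.33, Ifitm2 by -0.29 and Ifitm3 by 0.50. Among 9879 genes, 44.3%, 50.1% and 26.8% differed by more in size than Ifitm1, Ifitm2 and Ifitm3 did. In RM1, 10 of the 49 were higher in a than in b (median -0.50), and Ifitm1 differed by 0.17, Ifitm2 by 0.59 and Ifitm3 by -0.15. For this list the RM1536 duplicates are thus far apart, while the Ifitm genes differed by at most 0.50 there. Without RM1536 a 46 of the 49 were called lower, and the replicate block left 7.

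None of the 49 was called by edgeR in bone against RM1536, lung against RM1536 or bone against lung. Of all 13832 tested genes it called 2, 0 and 1, so nothing is read from 0 of 49. Unadjusted p under 0.05 was reached by 16, 1 and 3 of the 49 and by 1372, 1902 and 1171 of all tested genes. DESeq2 called 3, 0 and 0 of the 49 lower. Their median log2 fold change was -1.67 in bone and -0.74 in lung against RM1536, and -0.94 in bone against lung. Cmpk2, Rsad2 and Sp100 had no count in bone; set at the bound that 3 counts give, the medians of the 2 comparisons with bone were -1.67 and -0.87. In bone against lung 43 of the 49 had a lower value in bone, while Ifitm1 and Ifitm2 lay above all 49 (highest Gbp2, 0.61) and Ifitm3 above 46 of them. In lung against RM1536 the family lay within the list, with 17 of the 49 above Ifitm1, 24 above Ifitm2 and 14 above Ifitm3.

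**Figure D3:**
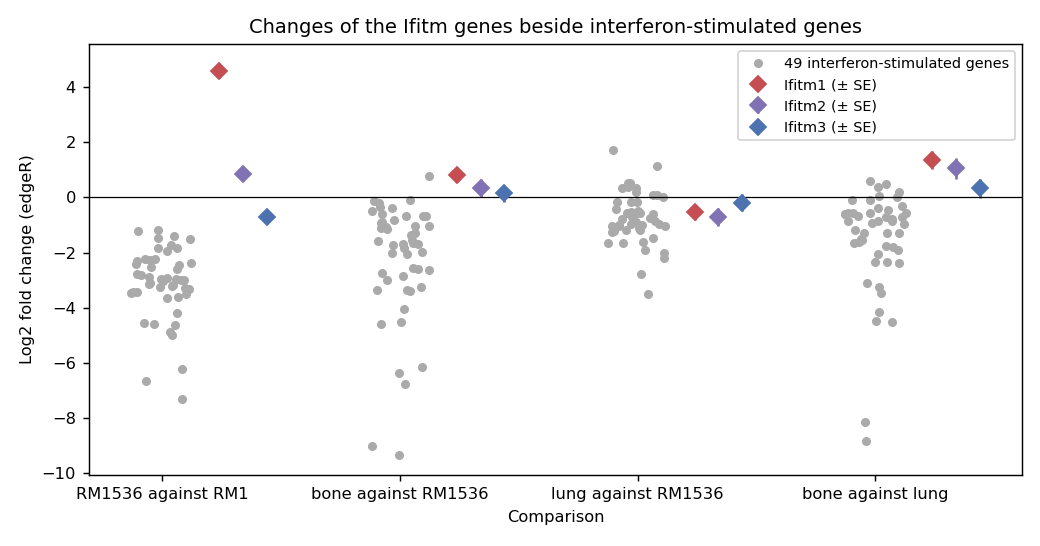
Log2 fold change of Ifitm1, Ifitm2 and Ifitm3 (diamonds, with SE bars) and of 49 type I interferon-stimulated genes (grey points, spread sideways for visibility) in the 4 comparisons. In RM1536 against RM1 all 3 diamonds lie above all grey points, whose median is -2.98; grey values below -6 in the comparisons with bone belong to genes with few or no counts there.

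Upstream of these genes, edgeR called 2 of the 19 tested interferon receptors, kinases and factors lower in RM1536 against RM1 and 0 higher. A lower value was found for 18 of the 19. Unadjusted p under 0.05 was reached by 14 of the 19 and by 3176 of all 13832 tested genes. Of all tested genes 3.54% were called lower and 2.10% higher. The list's median log2 fold change was -0.90. Among the 2 called was Irf5, a transcription factor of the interferon pathway (-5.51 ± 0.79, edgeR adjusted p = 0.0206). Irf5 stood at 13.03 and 24.9 CPM in RM1 a and b and at 0.724 and 0.130 in RM1536 a and b. Without RM1536 b its call was lost (adjusted p 0.0531). None of the 19 was called by edgeR in bone against RM1536, lung against RM1536 or bone against lung. Of all 13832 tested genes it called 2, 0 and 1 there. Unadjusted p under 0.05 was reached by 6, 2 and 0 of the 19 and by 1372, 1902 and 1171 of all tested genes.

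Proteins that modify or partner IFITMs gave no call. Of 16 tested genes of this list 0 rose and 0 fell in RM1536 against RM1 by edgeR (2 at an unadjusted p under 0.05), with a median log2 fold change of -0.06. The 2 with the highest mean level were Nedd4, a ubiquitin ligase that marks IFITM3 for turnover (1779 CPM on average, 0.20 ± 0.22, edgeR adjusted p = 0.644), and Vcp, a segregase that acts on ubiquitinated proteins (592 CPM on average, -0.21 ± 0.24, edgeR adjusted p = 0.669). Among 9 tested genes of other virus entry restriction factors, 1 was called lower: Ncoa7 (-1.80 ± 0.21, edgeR adjusted p = 0.0137), which stood at 71.3 and 81.2 CPM in RM1 and at 21.4 and 22.3 in RM1536. Its adjusted p was 0.058 without RM1536 b. The list's median was -0.43. Of all tested genes 3.54% were called lower and 2.10% higher in this comparison, and nothing is read from 0 of 16 and 1 of 9.

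Ifitm1 and Ifitm3 are germ cell genes in the embryo, so a list of primordial germ cell genes was also counted. Of 5 tested, 1 was called lower in RM1536 against RM1, the receptor kinase gene Kit (-5.72 ± 1.05, edgeR adjusted p = 0.0387). Kit had 127 counts over both RM1 libraries against 2 over both of RM1536, and the ratio was 0.0165 (exact 95% interval 0.00198 to 0.0608, counting error only), and 3 of 10 alternatives lost the call, among them those without RM1 a, without RM1536 a and without RM1536 b (adjusted p 0.0762, 0.064 and 0.128). The list's median was 0.33. Prdm1, a repressor gene of germ cell specification named after its values were seen, stood at 0.334 and 0.0708 CPM in RM1 a and b, 1.49 and 0.809 in RM1536 a and b, 69.7 in bone and 22.4 in lung. Its log2 fold change was 2.44 ± 0.63 in RM1536 against RM1 (edgeR adjusted p = 0.0864), 5.93 ± 0.57 in bone against RM1536 (edgeR adjusted p = 0.0686) and 4.29 ± 0.55 in lung against RM1536 (edgeR adjusted p = 0.252), so none passed. Of 8 tested targets of Wnt and beta-catenin signalling, 1 was called higher in RM1536 against RM1, the transcription factor gene Tcf7 (1.40 ± 0.28, edgeR adjusted p = 0.0477). Tcf7 stood at 4.78 and 7.08 CPM in RM1 and at 17.1 and 14.2 in RM1536. The list median was 0.99. Tcf7 lost the call in 7 of 10 alternatives, leaving out any 1 of the 4 cultured libraries included (adjusted p 0.0561 to 0.16). Of all tested genes 3.54% were called lower and 2.10% higher in RM1536 against RM1, and nothing is read from 1 of 5 and 1 of 8. No gene of these 4 lists was called in bone or lung by edgeR (at an unadjusted p under 0.05, 0 to 3 genes per list and comparison). Of all tested genes it called 2 in bone against RM1536, 0 in lung against RM1536 and 1 in bone against lung.

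Marker lists of other cell types were summed in the same libraries. The summed leukocyte markers were 34.6 and 68.5 CPM in RM1 a and b, 30.4 and 23.5 in RM1536 a and b, 40.5 in bone and 39.3 in lung over 13 genes. The endothelial sum was 3.37 to 8.09 CPM over 8 genes and the lung epithelial sum 1.17 to 9.09 over 6. The sum of osteoblast and osteoclast markers was 56.4 to 86.5 CPM over 10 genes, most of it from Runx2 (47.8 to 78.8 CPM). Their parts in the Ifitm values were not tested. Called among the marker lists in RM1536 against RM1 were Laptm5 (-3.21, edgeR adjusted p = 0.0343), Ly6a (-3.25, 0.0142), Fap (-3.82, 0.0214) and Dmp1 (-5.32, 0.0242), all lower, and Ctsk (4.30, 0.0477), higher. These were 1 of 5 tested leukocyte markers, 2 of 9 stromal fibroblast markers, and 1 lower and 1 higher of 8 osteoblast and osteoclast markers. Of all tested genes 3.54% were called lower and 2.10% higher. Of 10 alternatives, 6 lost the call of Ctsk, 5 that of Laptm5, leaving out any 1 of the 4 cultured libraries included (adjusted p 0.062 to 0.144), 3 each those of Dmp1 and Fap, without RM1536 a and without RM1536 b among them, and 0 that of Ly6a. Ctsk was lost without RM1 a, RM1 b or RM1536 a (adjusted p 0.114, 0.0935 and 0.0711), and without RM1536 a or b the adjusted p was 0.0945 and 0.112 for Dmp1 and 0.0749 and 0.0831 for Fap.

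Genes next to the cluster were examined for whether they moved with it. Within 100 kb, 14 protein-coding genes besides the 3 had an entry, Ifitm5 and Ifitm6 included, and 10 had enough reads for a test. Of all tested genes edgeR called 5.64% in RM1536 against RM1, and nothing is read from the count among the 10. It called 1 of them: B4galnt4, a glycosyltransferase gene beyond Ifitm6 (141061104 to 141072400), at 2.71 ± 0.33 (adjusted p = 0.0146). Its level was 2.41 and 1.95 CPM in RM1 a and b, 11.5 and 17.1 in RM1536 a and b, 28.6 in bone and 3.20 in lung. Its 2 RM1 libraries lay below both RM1536 libraries and bone was the highest, as for Ifitm1, but lung lay close to RM1. Its difference between bone and lung was 3.16 ± 0.47 and did not pass (edgeR adjusted p = 0.198). Without RM1536 b the call was lost (adjusted p 0.0531), as it was with the replicate block (0.0545).

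The other neighbours gave no call. Psmd13, a proteasome subunit gene before the cluster (140881968 to 140898643), had a log2 fold change of 0.00 in RM1536 against RM1 (edgeR adjusted p = 0.996; 79.9 to 98.0 CPM over the 6 libraries). Sirt3 was at -0.05, Bet1l at -0.41, Ric8a (entry Ric8) at -0.58, Sigirr at -0.40 and Pgghg (entry Athl1) at -0.57. Pkp3, a desmosome plaque gene, was at -1.24 ± 0.28 (edgeR adjusted p = 0.0625). Odf3, Cox8b, Nlrp6 and Ano9 had too few reads for a test. In bone against lung edgeR called 0 of the 10, as in bone and in lung against RM1536. Of all 13832 tested genes it called 1 in bone against lung, 2 in bone against RM1536 and 0 in lung against RM1536.

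**Figure D4:**
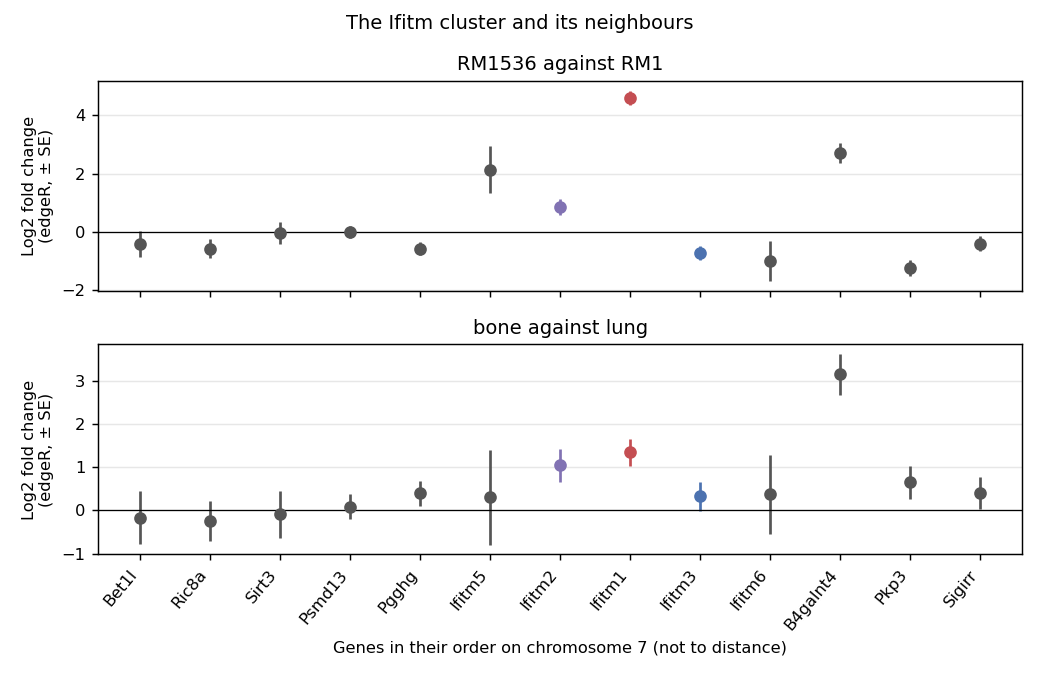
Log2 fold change (edgeR, bars are SE) of the tested genes of the cluster and within 100 kb of it, in their order along chromosome 7 and not to distance, for RM1536 against RM1 (top) and bone against lung (bottom). Ifitm1 (4.60) and B4galnt4 (2.71) stand out above their neighbours in the top panel, and Ifitm1, Ifitm2 and B4galnt4 (1.35, 1.05 and 3.16) lie above 1 in the bottom panel.

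Finally, the genes most like each member were found by the root mean square (RMS) difference of log2 CPM after each gene was centred on its mean over the 6 libraries, among 9878 other genes with a mean of at least 5 CPM. This is a description over 6 libraries that include duplicates and share their scaling. Nearest to Ifitm1 were Tspan11 (RMS 0.254), Acot1 (0.369), Ror2 (0.474), Olfml2b (0.583) and Glp1r (0.603), and no gene came within 0.2. The level of Tspan11, a tetraspanin gene, was 0.267 and 0.212 CPM in RM1 a and b, 5.87 and 8.48 in RM1536 a and b, 11.8 in bone and 4.93 in lung. Ror2, a receptor for Wnt5a, was read at 1.44 and 0.637 CPM in RM1 a and b, 17.1 and 25.3 in RM1536 a and b, 44.1 in bone and 26.6 in lung. Both were low in RM1 and highest in bone, as was Ifitm1.

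For Ifitm2 the nearest were Pkig (0.069), Slc5a6 (0.079), Ptgfrn (0.114), Hadh (0.119) and Fn3krp (0.125), and 38 genes came within 0.2. Pkig, a protein kinase inhibitor gene, was read at 43.2 and 28.5 CPM in RM1 a and b, 60.7 and 78.1 in RM1536 a and b, 81.9 in bone and 44.5 in lung, which repeats the order of Ifitm2 but for lung and RM1 a. For Ifitm3 the nearest included Cyb561 (0.089), 1600014C10Rik (0.09), Zcchc4 (0.094), and Tstd2 (0.098), and 142 genes came within 0.2. The RMS distance grows with the range of a gene, which is far wider for Ifitm1, so these counts do not rank the 3 by how shared their patterns are. Pearson's r between the 5 nearest genes and their member, over the same 6 libraries and as a description, was 0.963 to 0.994 for Ifitm1, 0.973 to 0.997 for Ifitm2 and 0.963 to 0.977 for Ifitm3. Between members the distance was 1.85 for Ifitm1 with Ifitm2, 2.56 for Ifitm1 with Ifitm3 and 0.81 for Ifitm2 with Ifitm3. By Pearson correlation in place of the RMS distance, 1, 2 and 0 of the 5 nearest genes of Ifitm1, Ifitm2 and Ifitm3 were shared.

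**Figure D5:**
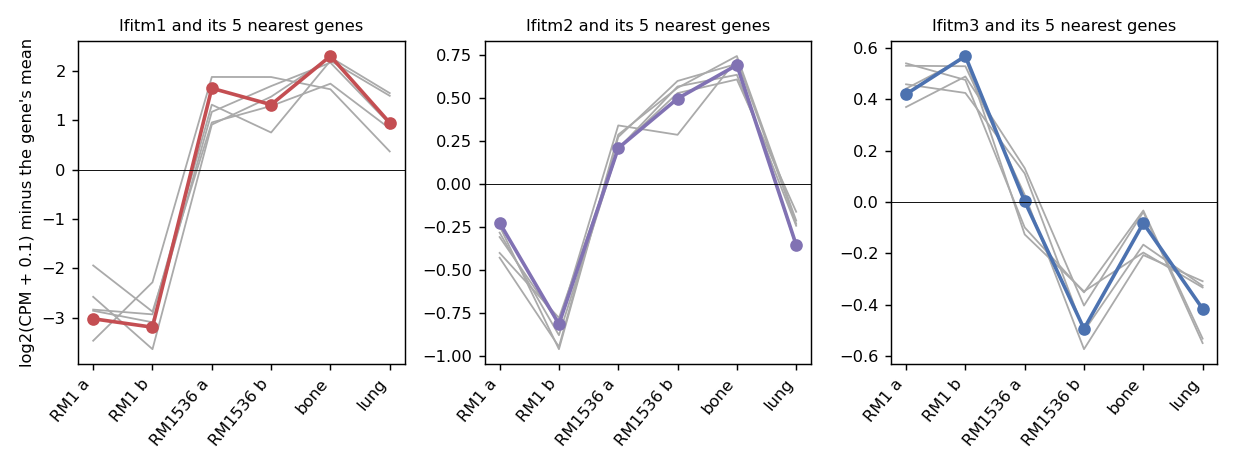
Centred log2 level (log2 of CPM plus 0.1, minus the gene's mean over the 6 libraries) of each member (coloured) and its 5 nearest genes (grey) by library; the vertical scales differ between panels. Ifitm1 spans the widest range (45.1-fold in CPM), and the RMS distance of its nearest genes (0.254 to 0.603) is on that wider scale.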

How the data were processed

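The deposited table holds raw counts of reads per gene in 6 mouse libraries, made by the authors. The submitters' processing notes name TopHat2 2.1.10, HTSeq, edgeR and GRCm38, without their roles. The strand setting, read length, counting mode and annotation are not stated in the sources used here. Counts of a nameless entry, 0.00626% to 0.0083% of each library, were left out.

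Counts were analysed with edgeR 4.0.16 in R 4.3.3 (TMM factors, genes kept by filterByExpr with groups, 1 quasi-likelihood model of all 6 libraries in 4 groups), with BH adjustment over 13832 genes and a call at 0.05. The spread came from the duplicates (2 residual and 4.03 prior degrees of freedom, biological coefficient of variation 0.269), and the lone bone and lung libraries were assumed to vary like them. CPM values use TMM factors (0.942 to 1.03), and values per kb divide by the union of exon bases in GENCODE M21 (GRCm38). SE is the log2 fold change divided by the root of its F statistic. Alternatives were DESeq2 1.42.0, limma 3.58.1 with voom, other size factors, other filters, each cultured library left out, and the letters a and b as a block. The script was tested on simulated data.

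Members, gene lists and alternatives were chosen with earlier results of these data known. Besides the 3 genes, those named are the other Ifitm genes, protein-coding genes within 100 kb of the cluster, up to 4 called genes per list and direction (otherwise the 2 with the highest mean CPM), and the 5 nearest genes by log2 profile. The letters did not pair the libraries: the a minus b differences of RM1 and RM1536 had r = -0.52 across 9879 genes. Protein sequences were not used here, and some genes that the naming rule takes are not reported here.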

Additional observations from a re-analysis of the deposited data

Results flagged for a closer look

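For Ifitm1, bone (806 CPM) lay above and lung (316 CPM) below both RM1536 libraries (513 and 408 CPM), so the 2 recovered libraries moved in opposite directions from the cultures they share as a reference; the log2 fold change of bone against lung was 1.35. For Ifitm2 the same held, with 398.2 CPM in bone and 192.5 in lung around 284.7 and 347.8 in RM1536, and a log2 fold change of 1.05. The difference between bone and lung did not pass edgeR's test after BH adjustment for either gene (adjusted p = 0.381 and 0.559), and each side is 1 library from the same mouse.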

How the results depend on the processing

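In bone against lung, the only comparison tested for Ifitm1, Ifitm2 and Ifitm3, none of them changed sign in any alternative. Against RM1536, Ifitm3 changed sign in bone (-0.09 to 0.42) and in lung (-0.40 to 0.11) with 1 cultured library left out. For RM1536 against RM1, 780 genes were called, 1471 with DESeq2, 2394 with no filter on low counts and 196 to 513 with 1 cultured library left out; of the 49 interferon-stimulated genes, 17 were called lower, 33 with DESeq2, 31 with limma-voom, 49 with no filter and 13 to 46 with 1 cultured library left out. With the letters as a replicate block in the 4 cultures, 295 genes and 7 of the 49 were called, and Ifitm1, Ifitm2 and Ifitm3 stood at 4.58, 0.86 and -0.75; with the letters crossed, an alternative chosen after seeing the data, 3165 genes and 49 of the 49 were called. Bone against RM1536 gave 380 calls with DESeq2, 0 with limma-voom, 859 with no filter and 0 to 128 with 1 cultured library left out, and 3 (DESeq2) and 33 (no filter) of the 49. Lung against RM1536 gave 359 with DESeq2, 1299 with no filter and 0 to 7 with 1 cultured library left out (7 without RM1 b), and 13 of the 49 with no filter. Bone against lung gave 221 with DESeq2, 0 with limma-voom, 754 with no filter, 0 with a stricter filter and 1 to 32 with 1 cultured library left out, and 17 of the 49 with no filter. Ifitm1 in bone against lung passed with DESeq2 (1.32, adjusted p = 0.0197) and with no filter (1.30, adjusted p = 0.0158); for Ifitm2 and Ifitm3 the adjusted p ran from 0.137 to 0.573 and from 0.733 to 0.973. The cause was not tested.

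With 1 cultured library left out, the log2 fold changes of Ifitm1, Ifitm2 and Ifitm3 were 4.39 to 4.73, 0.59 to 1.14 and -1.02 to -0.52 in RM1536 against RM1, 0.65 to 0.99, 0.20 to 0.48 and -0.09 to 0.42 in bone against RM1536, and -0.68 to -0.34, -0.82 to -0.54 and -0.40 to 0.11 in lung against RM1536, so the sign of Ifitm3 in bone and in lung depends on which RM1536 library is kept. With the longest transcript as length, Ifitm1 made up 1.31% of the family's level per kb in RM1, 28.4% in RM1536, 37.5% in bone and 26.0% in lung, Ifitm2 25.0% in bone and 21.4% in lung, and Ifitm3 37.5% in bone and 52.6% in lung. Calls of Cmpk2, Lgals3bp, Ly6a and Parp14 were lost in 0 of the 10 alternatives, Laptm5 in 5, Ctsk in 6, and Dmp1 and Fap in 3. Where leaving out a library left 1 in its group, that one was assumed to vary like the others. With 1 library each, bone and lung carry no measure of the spread between animals.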
